A study of Mus musculus with 12 samples.

Results

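The pyruvate dehydrogenase complex and the kinases and phosphatase that switch it were examined in gastrocnemius, the main calf muscle, of mice with small and with regular hindlimb muscles. The 9 genes were the subunit genes Pdha1, Pdhb, Dlat and Dld, the kinase genes Pdk1, Pdk2, Pdk3 and Pdk4, and the phosphatase gene Pdp1. All probe sets that the platform annotation assigns to exactly 1 of these genes were taken, which gave 18 of the 45101 probe sets on the array. The mice were males of generation 37 of a breeding experiment on voluntary wheel running, with a mean age of 84 days (79 to 86 days). One group of 6 came from line 3 and had mini-muscles, hindlimb muscles of heritably low mass, with the left and right muscles of a mouse pooled. The other 6 came from line 8 and had muscles of regular size, with the left or the right muscle used. Both lines had been selected for high running, and no unselected line was analysed here. Phenotype, line and the pooling of limbs divide the 12 arrays in the same way and cannot be told apart, and each phenotype is represented by 1 closed line.

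Pyruvate dehydrogenase is the mitochondrial enzyme complex that converts pyruvate, the end product of glycolysis, into acetyl-CoA for the citric acid cycle, a step that cannot be run backwards. Kinases of the PDK family phosphorylate its E1 alpha subunit and switch the complex off, and phosphatases of the PDP family remove the phosphate and switch it on. In skeletal muscle Pdk4 is known for its rise in fasting and during high use of fatty acids, when it spares glucose, while Pdk2 is the other main muscle isoform.

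Of the 9 genes, 3 rose in mini-muscle and 0 fell: the kinase genes Pdk4 (1.62-fold) and Pdk1 (1.45-fold) and Dlat (1.22-fold), the gene of the E2 core of the complex. Pdk2, Pdha1, Pdhb, Dld and Pdp1 did not pass the test, and Pdk3 was too dim to be tested with them. Values are MAS5 signal intensities on the log2 scale, a difference is the mini-muscle mean less the regular-muscle mean, with the standard error (SE) of the fit, and n = 6 arrays per group throughout. A gene is said to rise or fall at a limma adjusted p under 0.05, read from the brightest probe set of the gene among the 9097 genes whose mean log2 intensity reached the dim limit of 8.56. Of those 9097 genes 26.7% were called in either direction and 14.9% higher, beside 3 of the 8 genes of the complex that were tested. The median difference over all tested genes was 0.03. That 0 genes fell rests on the use of the brightest probe sets. The dimmer probe set of Pdhb, also above the dim limit, was lower by 0.81 (limma adjusted p = 0.0062 over all single-gene probe sets). In whole muscle, a change in the mix of cells or fibres and a change of RNA within each fibre cannot be told apart.

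The stretches of genome just upstream of the 3 genes that rose are shown as promoter sequence of genes called in the same direction. Shared control of the 3 was not tested. They cover the 250 bases before an annotated start, from RefSeq on build GRCm38.p6, written 5′ to 3′ on the strand of the gene. Capitals mark CCAAT boxes (CCAAT, or ATTGG when the box lies on the other strand) and GC boxes (GGGCGG), both common elements of basal promoters and both chosen after the sequences were seen. Pdk4 lies on the minus strand at chr6:5496279-5496528, Pdk1 on the plus strand at chr2:71872974-71873223 and Dlat on the minus strand at chr9:50659781-50660030.
Pdk4: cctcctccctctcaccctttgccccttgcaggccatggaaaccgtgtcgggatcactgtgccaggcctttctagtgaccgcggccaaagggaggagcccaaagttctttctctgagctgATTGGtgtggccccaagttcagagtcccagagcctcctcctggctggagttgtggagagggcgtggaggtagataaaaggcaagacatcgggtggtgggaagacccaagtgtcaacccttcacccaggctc
Pdk1: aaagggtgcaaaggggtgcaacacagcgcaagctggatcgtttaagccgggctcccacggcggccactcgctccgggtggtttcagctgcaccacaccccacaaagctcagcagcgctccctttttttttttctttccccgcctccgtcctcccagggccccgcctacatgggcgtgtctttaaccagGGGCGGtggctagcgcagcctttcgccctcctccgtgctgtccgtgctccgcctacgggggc
Dlat: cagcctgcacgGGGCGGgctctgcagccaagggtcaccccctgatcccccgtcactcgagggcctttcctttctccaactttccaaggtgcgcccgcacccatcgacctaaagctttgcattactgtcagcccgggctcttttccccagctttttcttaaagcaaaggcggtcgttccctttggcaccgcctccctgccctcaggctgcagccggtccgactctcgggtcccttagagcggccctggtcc
The Pdk4 stretch held 1 CCAAT box and 0 GC boxes, whereas the Pdk1 and Dlat stretches held 0 CCAAT boxes and 1 GC box each. A second annotated start of Pdk1, at chr2:71874654-71874903 and not printed, held 0 of either, and which start the probe sets read was not tested. On both strands, 33.85% of the 32851 promoters in the RefSeq table held CCAAT and 32.74% held GGGCGG. The table had 10 entries for 8 of the 9 genes. Of these, 0 held AGGTCA (the half-site of nuclear receptors, in 14.02% of all promoters), AAGGTCA (its extended form, which contains the former, in 4.08%) or TGTTTAC (the forkhead core, in 3.17%). These letters are therefore not in these windows, and sites farther from the start were not searched. CCAAT was in 5 of the 10 entries and GGGCGG in 4, and entries of the uncalled genes Pdhb, Pdk2, Pdk3 and Dld were among them.

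Pdk4, the kinase isoform induced by fasting, had the clearest change of the family. Its log2 intensity on mini-muscle arrays 1 to 6 was 15.50, 15.15, 15.46, 15.55, 15.30 and 15.14. On regular-muscle arrays 1 to 6 it was 14.76, 14.73, 14.51, 14.65, 14.54 and 14.75. Every mini-muscle array lay above every regular-muscle array, with mini-muscle replicates 1, 3 and 4 highest. The means were 15.35 ± 0.18 (SD, n = 6) and 14.66 ± 0.11 (SD, n = 6), and the difference was 0.70 (SE 0.08, 95% interval 0.52 to 0.87, adjusted p = 5.3e-06). By unadjusted p it stood at rank 156 of all tested genes. The groups of arrays did not overlap in either direction for 13.0% of tested genes, and 6.86% lay wholly higher in mini-muscle. An exact two-sided permutation test, run on each of the 18 probe sets without adjustment, gave p = 0.0022 for Pdk4, the smallest value that 6 against 6 arrays allow.

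Pdk1, best known as a target of the hypoxia factor HIF-1, was read by 4 probe sets. On the brightest (1435836_at) the mini-muscle arrays held 11.82, 12.28, 12.03, 12.18, 12.34 and 12.24, and the regular-muscle arrays 11.31, 11.77, 11.91, 11.76, 11.68 and 11.22. The groups overlapped through a single mini-muscle array, replicate 1, which lay below regular-muscle replicate 3. The difference was 0.54 (SE 0.12, 95% interval 0.28 to 0.80, adjusted p = 0.0032), and the exact permutation test gave p = 0.0043. The other probe sets differed by 0.58 (1423748_at), 0.28 (1423747_a_at) and 0.21 (1434974_at, below the dim limit). In a fit of all 34958 single-gene probe sets, in which 8.92% were called (19.5% of those above the dim limit), 1435836_at (adjusted p = 0.0066) and 1423748_at (adjusted p = 0.026) passed and the remaining pair did not (adjusted p = 0.41 and 0.80).

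Pdk2 and Pdk3 gave no call. Pdk2, the broadly expressed muscle isoform, was at 13.35, 13.35, 13.53, 13.63, 13.22 and 13.31 on the mini-muscle arrays and at 12.13, 13.15, 13.25, 12.89, 13.36 and 13.63 on the regular-muscle arrays. The groups overlapped, and the regular-muscle arrays spread more widely (SD 0.52 against 0.15), with replicate 1 low and replicate 6 high. The difference was 0.33 (95% interval -0.04 to 0.70, adjusted p = 0.18), and 0.14 without regular-muscle replicate 1 (adjusted p = 0.41). Pdk3, an isoform with its main sites outside muscle, had 1 probe set below the dim limit. It read 8.31, 7.97, 4.04, 4.97, 7.79 and 7.99 on the mini-muscle arrays and 4.00 to 6.01 on the regular-muscle arrays. Replicates 3 and 4 of mini-muscle fell within the regular-muscle range, and the difference of 2.04 (SE 0.78) did not pass in the fit of all probe sets (adjusted p = 0.13).

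**Figure D1:**
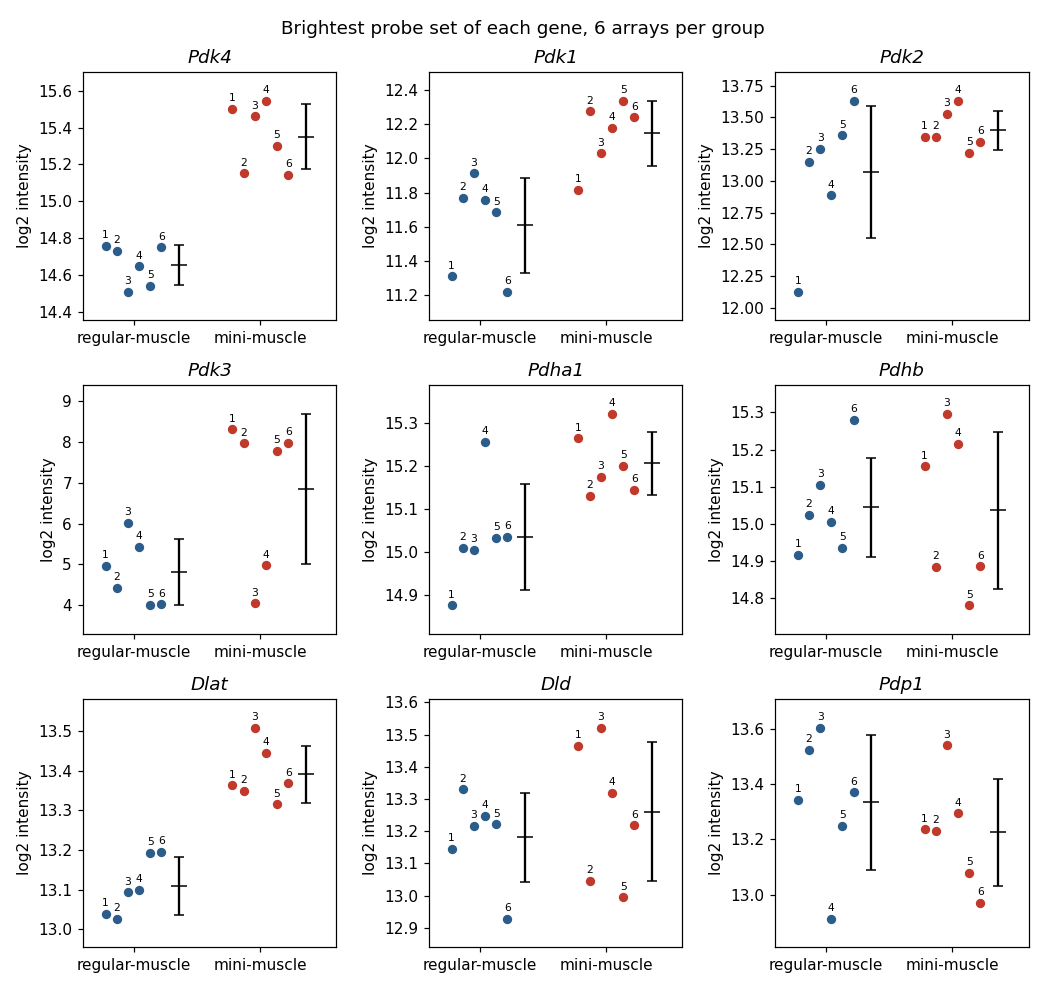
Log2 MAS5 intensity of the brightest probe set of each of the 9 genes (y axis) on the 6 regular-muscle and 6 mini-muscle arrays (points, numbered by replicate), with the mean and SD of each group as a bar to the right of the points. The y axes differ between genes and do not start at 0; the groups are apart for Pdk4 and Dlat and overlap for the other 7 genes.

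Among the subunits of the complex, Dlat alone was called at its brightest probe set. Dlat encodes E2, the lipoate-bearing acetyltransferase that forms the core. Its brightest probe set (1426265_x_at) read 13.36, 13.35, 13.51, 13.44, 13.31 and 13.37 on the mini-muscle arrays and 13.04, 13.03, 13.09, 13.10, 13.19 and 13.20 on the regular-muscle arrays. Both groups were narrow (SD 0.07 each) and did not overlap. The difference was 0.28 (SE 0.07, 95% interval 0.14 to 0.42, adjusted p = 0.0039). A second probe set (1426264_at) rose by 0.27 (adjusted p = 0.016 in the fit of all probe sets), also without overlap, while the third (1452005_at) differed by 0.04 (95% interval -0.12 to 0.20, adjusted p = 0.85). The call ended when arrays were centred on their medians (difference 0.29, adjusted p = 0.088).

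Pdha1, the X-linked gene of the E1 alpha subunit that carries the phosphorylation sites, was at 15.26, 15.13, 15.17, 15.32, 15.20 and 15.14 on the mini-muscle arrays and at 14.88 to 15.26 on the regular-muscle arrays. Regular-muscle replicate 4, at 15.26, alone reached the mini-muscle range, and the other 5 lay at 15.04 or below. The difference was 0.17 (SE 0.07, 95% interval 0.03 to 0.31, adjusted p = 0.070). It passed after quantile normalization (0.20, adjusted p = 0.0083), with array quality weights (0.18, adjusted p = 0.041) and without regular-muscle replicate 4 (0.21, adjusted p = 0.016). A dimmer probe set (1449137_at) differed by 0.38 (adjusted p = 0.12 in the fit of all probe sets), with mini-muscle replicates 1, 3 and 4 at 13.81, 13.82 and 13.59 and the other mini-muscle arrays at 12.95 to 13.25, within or just above the regular-muscle range of 12.83 to 13.17.

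Pdhb, the E1 beta subunit, gave different answers from its probe sets. The brighter (1416090_at) read 15.15, 14.89, 15.30, 15.21, 14.78 and 14.89 in mini-muscle and 14.92 to 15.28 in regular muscle. The group means were 15.04 ± 0.21 and 15.04 ± 0.13 (SD, n = 6 each), with a difference of -0.01 (95% interval -0.20 to 0.18, adjusted p = 0.96). The dimmer (1448214_at) read 10.04, 10.06, 10.73, 9.42, 9.55 and 9.51 in mini-muscle and 10.56 to 10.91 in regular muscle, so that only mini-muscle replicate 3 reached the regular-muscle range. It fell by 0.81 (SE 0.18, adjusted p = 0.0062 in the fit of all probe sets, in which 3.91% were called lower). With the mean of both probe sets Pdhb was called lower (-0.41, adjusted p = 0.023).

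Dld encodes E3, the dihydrolipoamide dehydrogenase that the complex shares with other dehydrogenases of 2-oxo acids. It was at 13.46, 13.05, 13.52, 13.32, 13.00 and 13.22 in mini-muscle and 12.93 to 13.33 in regular muscle. The difference of 0.08 (95% interval -0.13 to 0.28, adjusted p = 0.61) was within the spread of the groups. Its second probe set (1433263_at) lay far below the dim limit, at 5.27 against 4.72.

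Pdp1, the calcium-stimulated phosphatase that reactivates the complex, did not move opposite to Pdk4 by a called amount. Its brighter probe set (1434228_at) ranged from 12.97 to 13.54 in mini-muscle and from 12.91 to 13.61 in regular muscle, a difference of -0.11 (95% interval -0.34 to 0.13, adjusted p = 0.52). Its second probe set (1438201_at) differed by 0.06 (95% interval -0.17 to 0.29). The groups overlapped on both.

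**Figure D2:**
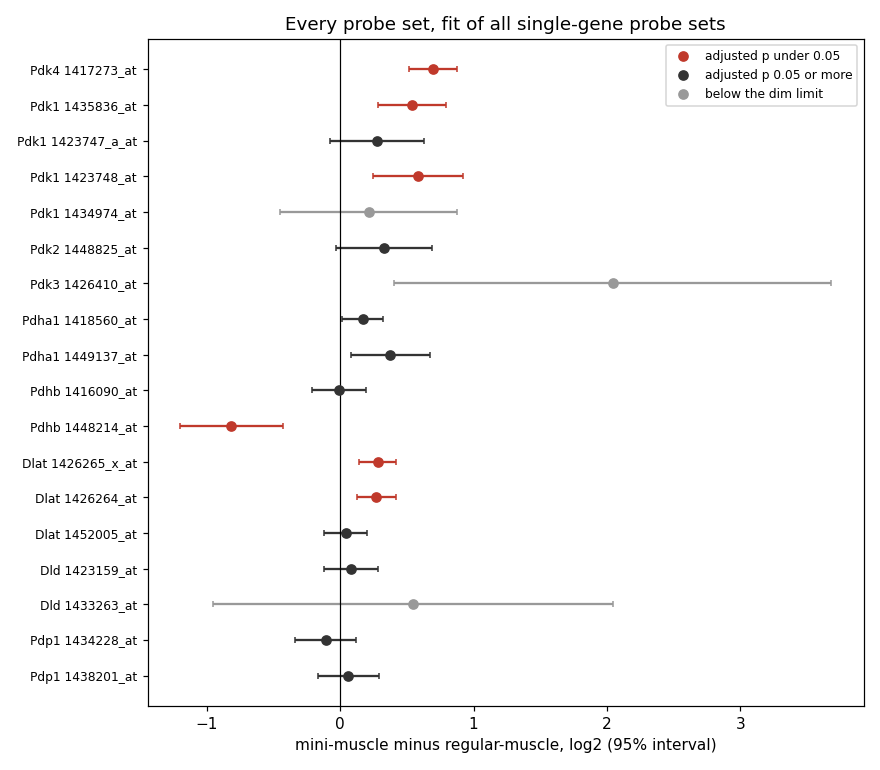
Difference in log2 intensity, mini-muscle minus regular-muscle (x axis), with its 95% interval for each of the 18 probe sets of the 9 genes in the fit of all single-gene probe sets. Red points had an adjusted p under 0.05 (Pdk4, Pdk1, Dlat and the dimmer probe set of Pdhb), black points did not, and grey points were below the dim limit.

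The spacing between Pdk4 and the complex was also read within each array, where the scaling of arrays cancels. The log2 ratio of Pdk4 to Pdhb was 0.70 higher in mini-muscle (1.63-fold). For Pdha1, Dlat and Dld as partners the ratio was 0.53, 0.41 and 0.62 higher, and for the phosphatase Pdp1 it was 0.80 higher. For each of these 5 partners the lowest mini-muscle array lay above the highest regular-muscle array, by 0.06 (Dlat) to 0.32 (Pdhb). Pdk4 by itself already kept the groups apart (lowest mini-muscle array 15.14, highest regular-muscle array 14.76). A ratio of Pdk4 to a little-changed gene therefore tends to separate them too, and the share of such ratios over all genes was not taken. Against Pdk1 and Pdk2 the ratio changed by 0.16 and 0.37 and the groups overlapped. These ratios show unequal change and carry no test.

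**Figure D3:**
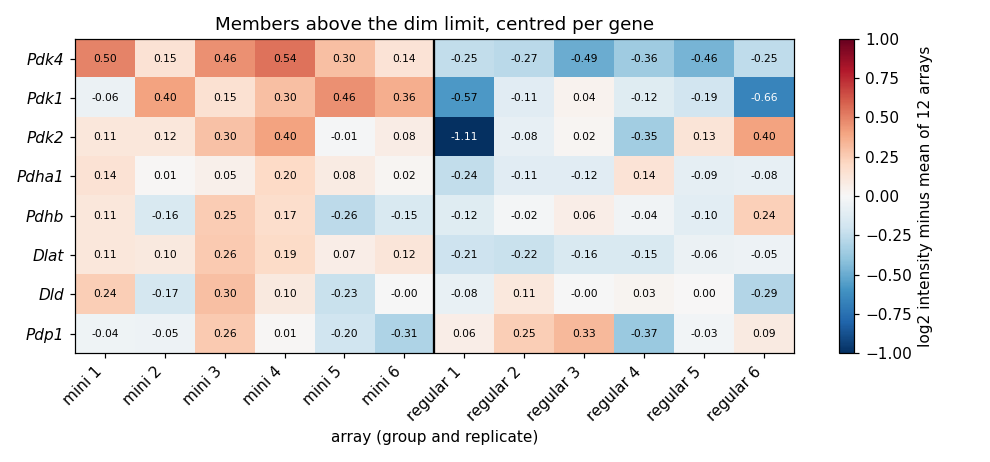
Log2 intensity of the 8 genes above the dim limit, each minus its mean over the 12 arrays (colour and printed value), with arrays as columns and mini-muscle to the left of the line. Pdk4 and Dlat are above their means on all mini-muscle arrays and below on all regular-muscle arrays, and Pdhb, Dld and Pdp1 vary among the mini-muscle arrays.

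Genes around the complex were taken from lists written from textbook knowledge, but with earlier results of these data known. The shares over all genes are therefore no independent yardstick for the counts in the lists. The counts in each list stand beside 26.7% of all 9097 tested genes called, 14.9% higher and 11.8% lower. The 2 further parts of the complex and its control that were bright enough did not pass. These were Pdhx, which tethers E3 to the core (0.14, adjusted p = 0.29), and Pdpr, the regulatory subunit of the phosphatase (0.17, adjusted p = 0.17). The second phosphatase gene, Pdp2, was below the dim limit, at 7.63 against 7.40. The cofactor list, which covers lipoate attachment and thiamine transport, had 0 of 4 genes called.

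Genes that bring pyruvate to the complex or lead it elsewhere moved in both directions: of 10 tested, 4 rose and 4 fell, with a median difference of -0.12. The 4 with the smallest adjusted p were Me1, Ldhb, Gpt and Gpt2. Me1, cytosolic malic enzyme, fell by 1.24 (2.36-fold; SE 0.11, adjusted p = 2.2e-07). At its second probe set the fall was 1.55. Ldhb, the heart-type subunit of lactate dehydrogenase, rose by 0.81 (SE 0.09, adjusted p = 3.1e-06), with 0.73 to 0.95 at its other probe sets. Ldha, the muscle-type subunit, named after its value was seen, fell by 0.33 (adjusted p = 0.0017), and its call was lost with arrays centred on their medians (adjusted p = 0.0504). The alanine transaminase genes parted, with Gpt higher by 0.95 (adjusted p = 5.9e-06; -0.64 at a dim second probe set) and Gpt2 lower by 1.10 (adjusted p = 9.6e-06). The monocarboxylate carriers, also named after their values were seen, parted as well. Slc16a1 rose by 0.88, with -0.91 at a dim second probe set, and Slc16a3 fell by 0.997. The mitochondrial pyruvate carrier subunit Mpc1 differed by -0.20 (adjusted p = 0.067) and passed after quantile normalization (-0.18, adjusted p = 0.029), with array quality weights (-0.21, adjusted p = 0.031) and without mini-muscle replicate 3 (adjusted p = 0.019) or regular-muscle replicate 1 (adjusted p = 0.033); its partner Mpc2 was not analysed here.

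The sister complexes that share Dld changed upward where they changed. Of 8 tested genes of the related 2-oxo acid dehydrogenases and glycine cleavage, 4 rose and 0 fell (median 0.29). Ogdh, E1 of the oxoglutarate complex, rose by 0.41 (SE 0.07, adjusted p = 3.7e-04), but a dim second probe set read -1.82 and the mean of both was called lower (-0.70). Dlst, its E2, rose by 0.38 (adjusted p = 0.0023). Bckdha, E1 alpha of the branched-chain complex, rose by 0.57 (adjusted p = 0.0014), and Ppm1k, the phosphatase of that complex, by 0.36 (adjusted p = 0.026). The call of Ppm1k was lost over all probe sets (adjusted p = 0.056), with arrays centred on their medians (0.11), and without mini-muscle replicate 3 or 4 or regular-muscle replicate 1 (0.060 to 0.070).

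Among genes that use, form or buffer acetyl-CoA, 3 of 6 rose and 0 fell (median 0.32). Mlycd, malonyl-CoA decarboxylase, rose by 0.74 (adjusted p = 6.1e-04), Crat, carnitine acetyltransferase, by 0.67 (adjusted p = 1.1e-05; 0.58 and -0.25 at its dimmer probe sets), and Acacb, the acetyl-CoA carboxylase of mitochondrial surfaces, by 0.53 (adjusted p = 0.0016).

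Genes known to respond to PPAR receptors, which also act on Pdk4, moved upward where they were called: 8 of 12 tested rose and 0 fell, with a median of 0.54. The 4 with the smallest adjusted p were Slc25a20, the carnitine and acylcarnitine carrier (0.80, adjusted p = 1.4e-05), Hadha, of the trifunctional beta-oxidation enzyme (0.79, adjusted p = 1.7e-05), the fatty acid transporter gene Cd36 (0.83, adjusted p = 2.7e-04) and Lpl, lipoprotein lipase (0.36, adjusted p = 0.0012). Of the 8 factors known to act on Pdk4, 2 rose and 2 fell. Esrra, the oestrogen-related receptor alpha, rose by 0.70 (SE 0.14, adjusted p = 8.3e-04) and Ppara by 0.45 (adjusted p = 0.020), while the glucocorticoid receptor Nr3c1 fell by 0.52 (adjusted p = 7.8e-04) and Ppard by 0.56 from a level near the dim limit (adjusted p = 0.044). Centring on medians ended the calls of Ppara (adjusted p = 0.062) and Ppard (adjusted p = 0.080). The call of Ppara was also lost over all probe sets (adjusted p = 0.052) and without mini-muscle replicate 1 (adjusted p = 0.052). That of Ppard was lost over all probe sets (adjusted p = 0.11), with no dim filter (0.099), with array quality weights (0.092) and in 8 of 12 cases without 1 array, and the mean of all probe sets left 0 of the 4 calls.

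Of 10 genes that respond to fasting or glucocorticoids, 2 rose and 0 fell, with a median of 0.11. This is near the 14.9% of all tested genes called higher. They were the cell cycle inhibitor gene Cdkn1a (1.55, adjusted p = 1.2e-04) and the ubiquitin ligase gene Fbxo32 (1.04, adjusted p = 3.7e-04). The other probe sets of Fbxo32, both well above the dim limit, differed by -0.26 and -0.17. The level of this list was 0.07 to 0.40 on mini-muscle and -0.62 to 0.15 on regular-muscle arrays, each gene being centred on its mean over all arrays.

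**Figure D4:**
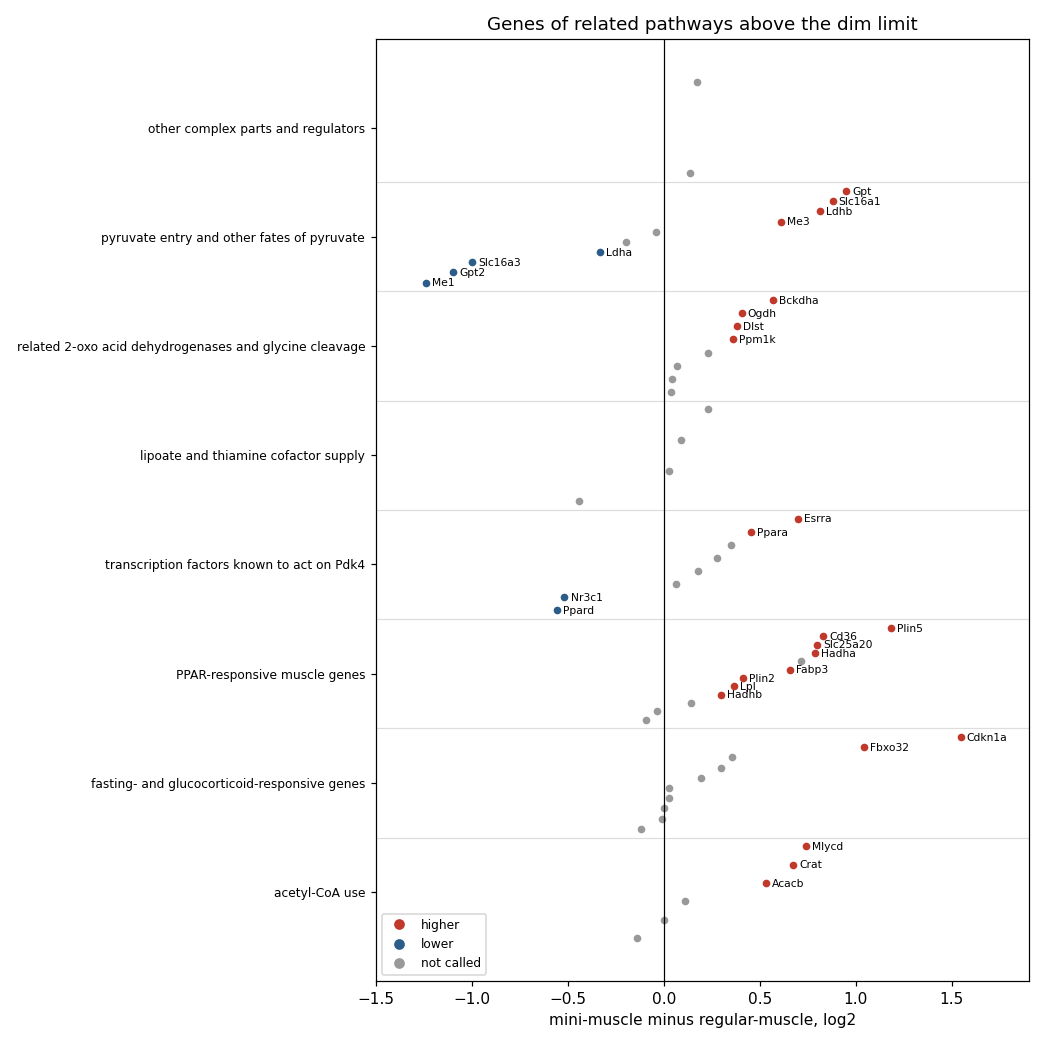
Difference in log2 intensity, mini-muscle minus regular-muscle (x axis), for each gene above the dim limit in the 8 lists around the complex (rows; height within a row only separates the points). Red genes were called higher, blue lower and grey neither; calls point both ways among the fates of pyruvate and to the right among PPAR-responsive genes.

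By the root mean square difference between profiles centred on their own means over the 12 arrays, the 3 tested genes nearest to Pdk4 were Acaa2 (0.11 log2 units), Ptpn3 (0.11) and Crat (0.11). They differed between groups by 0.68, 0.69 and 0.67. Nearest to Pdk1 were Angpt1, Wdr20 and Lmo7 (0.13 to 0.14), and nearest to Dlat were Vamp8, Stard7 and Tmem106b (0.06 to 0.07). The measure rewards an equal group difference and is a description.

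Muscle markers were bright in both groups (Ckm, muscle creatine kinase, at 17.24 and 17.38), and fibre-type and connective tissue markers moved with the groups. All 7 slow-fibre markers rose, with a list level of 0.20 to 0.68 on mini-muscle and -0.69 to -0.14 on regular-muscle arrays. Of 8 fast-fibre markers 3 fell and 1 rose (levels -0.35 to -0.05 against -0.01 to 0.31). Fibroblast markers fell in 3 of 5 cases (-0.65 to 0.02 against -0.03 to 0.61). Macrophage markers fell in 2 of 3 above the dim limit (-0.46 to 0.03 against -0.33 to 0.37 over 5). Endothelial markers rose in 1 of 5 (-0.06 to 0.34 against -0.41 to 0.34). List levels, here and below, are taken over all measured genes of a list, dim ones included. Of 3 adipocyte markers above the dim limit 1 rose and 1 fell (-0.97 to 0.37 against -0.17 to 0.42 over 5). The brown adipocyte markers Ucp1 and Cidea and the red cell markers Hba-a1 and Alas2 were below that limit, and Mbp of Schwann cells and Cdh15 of satellite cells did not pass. The part of fibre type or of any other cell type in the differences of Pdk4, Pdk1 and Dlat was not tested.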

How the data were processed

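Total RNA was extracted with Trizol and columns and labelled from 5 µg by the Affymetrix procedure, per the labels' protocols. The authors deposited intensities on a linear scale, 1 per probe set, for which the submitters' processing notes name MAS5. Its version, settings and detection calls, not given in the sources used here, remain unknown. After trimming 2% at each end the mean of every array was 800.0, and array medians were 211.9 to 275.2. Arrays have no depth; their number limits the precision.

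Intensities were taken to log2 with no offset. Of the 45101 probe sets, 34958 had 1 gene, 932 several and 9211 none in the platform annotation. The brightest probe set stood for a gene (18194 genes), and genes under the median gene mean (8.56) were left out as dim. Groups were compared with limma 3.58.1 (R 4.3.3), eBayes with an intensity trend, two-sided, with Benjamini-Hochberg adjustment over all 9097 genes; a second fit took all single-gene probe sets. The procedure was tested on simulated data.

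Named genes are the 9, up to 4 called genes per list with the smallest adjusted p, and Pdhx, Pdp2, Pdpr, Mpc1, Mpc2 and Ogdh; others are marked. The genes, lists and alternatives were chosen with earlier results of these data known. Replicate numbers follow accession order and pair nothing. Each array is a separate mouse, by its label.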

Additional observations from a re-analysis of the deposited data

How the results depend on the processing

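Pdk4 and Pdk1 were called higher under all alternatives run: quantile normalization, arrays centred on their medians, an offset of 64, the mean of all probe sets, no dim filter, the brightest 33.3% of genes, all probe sets tested together, no intensity trend, array quality weights, each array left out in turn, and arrays mini-muscle replicate 2 and regular-muscle replicate 1 left out together. That last pair, chosen after seeing the data, had the highest medians (275.2 and 274.4) and left the 3 calls in place. Dlat lost its call with arrays centred on their medians (0.29, adjusted p = 0.088). Pdha1 gained one after quantile normalization (0.20) and with array quality weights (0.18). Pdhb was -0.01 as deposited, 0.013 after quantile normalization, 0.0028 with arrays centred on their medians and -0.41, called, with the mean of its probe sets. The cause was not tested. With the mean of all probe sets, 1543 genes were called in place of 2426, 18 genes of the related lists in place of 29, Ogdh gave -0.70 and Slc16a1 -0.017, and the calls of Crat, Acacb, Fbxo32, Gpt, Dlst, Ppm1k, Nr3c1, Esrra and Ppara ended (adjusted p = 0.073 to 0.67).

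Leaving out 1 array gave 0.66 to 0.74 for Pdk4, 0.46 to 0.61 for Pdk1, 0.26 to 0.30 for Dlat, 0.14 to 0.21 for Pdha1, 0.14 to 0.44 for Pdk2, -0.060 to 0.043 for Pdhb (above 0 without mini-muscle replicates 2, 5 or 6 or regular-muscle replicates 3 or 6), 0.03 to 0.13 for Dld and -0.19 to -0.06 for Pdp1. It gave 3 to 4 genes of the 9 called, all higher, and 2145 to 2396 of all genes. No paired analysis was possible because the groups are separate mice of different lines, and the labels link no mouse of one group to a mouse of the other. Of the values, Pdk3 and the dim probe sets of Pdk1 and Dld lie too low to read a size.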

Other observations

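Within the mini-muscle group, replicates 1, 3 and 4 were the 3 highest arrays for Pdk4, Pdhb, Dld and Pdp1, or 4 of the 8 tested genes of the complex and its control, compared with 8.89% of all 9097 tested genes. These arrays were picked after the values of these same genes were seen, which itself raises the count among them. The share of all genes is therefore no yardstick for that count, and the order carries no test. Pdk4 was 15.46 to 15.55 on these arrays and 15.14 to 15.30 on the other mini-muscle arrays. Dld was 13.32 to 13.52 against 13.00 to 13.22, and Pdhb 15.15 to 15.30 against 14.78 to 14.89. Pdp1 was barely divided, at 13.24 to 13.54 against 12.97 to 13.23. The level of the PPAR-responsive list was 0.31 to 0.56 on replicates 1, 3 and 4 and -0.03 to 0.15 on replicates 2, 5 and 6. The list of related 2-oxo acid dehydrogenases (0.13 to 0.34 against 0.03 to 0.12, over 10 genes) divided the same arrays. So did that of genes that use, form or buffer acetyl-CoA (0.14 to 0.33 against -0.06 to 0.05, over 7 genes). The lists of further parts of the complex, fates of pyruvate, cofactor supply and factors acting on Pdk4 did not divide these arrays. On the list of further parts, mini-muscle replicate 3 was the lowest array (-0.71) and mini-muscle replicate 6 the highest (0.48). The slow-fibre level did not divide these arrays in that way. It was 0.32, 0.31 and 0.68 on replicates 1, 3 and 4 and 0.42, 0.46 and 0.20 on replicates 2, 5 and 6. Of the other marker levels only that of Schwann cells, from Mbp alone, did so, narrowly (-0.306 to 1.15 against -0.934 to -0.308). The fasting and glucocorticoid list divided the arrays the other way (0.07 to 0.12 against 0.13 to 0.40). The cause of this order was not tested. Pdk3, below the dim limit, was lower on mini-muscle replicates 3 and 4 (4.04 and 4.97) than on the other mini-muscle arrays (7.79 to 8.31).

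The probe sets of Pdhb and of Fbxo32, all above the dim limit, disagreed in their group differences. The intervals of the Pdhb probe sets did not overlap (-0.21 to 0.19 and -1.20 to -0.43 in the fit of all probe sets). For Fbxo32 the differences were 1.04, -0.26 and -0.17. Which transcript forms each probe set reads was not tested.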
